A study of Triticum aestivum with 15 samples.

Results

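The 53 probe sets described here measure enzymes and related proteins of lipid metabolism (11 probe sets), of secondary metabolism (13) and of the functional class called misc (29), which gathers large enzyme families such as glycosyltransferases, cytochromes P450, glutathione transferases and peroxidases. They are 53 of the 61290 probe sets on the Affymetrix Wheat Genome Array. They were chosen by the study's own list of probe sets that changed in alloplasmic wheat. As read here the list held 560 probe sets, slightly fewer than the study's text reports, and 66 of them were entries of these 3 classes. Of these, 13 were set aside: 7 for fatty acyl-CoA reductases, ms2 or CER4, 3 for FMO1, 2 for DIR1 and 1 for a protein placed in the chloroplast. The list was selected on the same arrays by comparing each alloplasmic line with its euplasmic parent, so the differences between those lines are given below as a description of the members and without p-values.

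An alloplasmic line carries the nucleus of one species and the chloroplasts and mitochondria of another, and a euplasmic line has the cytoplasm of its own species. The study compared 5 lines with 3 arrays each, 15 in all. TH237 holds the cytoplasm of Hordeum chilense accession H7, a wild barley, in the nucleus of the wheat line T20, and T20 itself is its euplasmic control. T183 holds the cytoplasm of Aegilops uniaristata and T195 that of Aegilops squarrosa (plasmon D, called Ae. tauschii in the study's methods), both in the nucleus of the wheat cultivar Chris, which is their euplasmic control. By the study's methods TH237 came from 2 backcrosses and the Aegilops lines from 10. All plants were seedlings of 14 days grown in garden soil, and RNA came from the second fully expanded leaf, with several plants of a pot bulked for each array. The study's methods place the plants used for the arrays at high light intensity. Nothing in the labels says that the pots came from separate sowings, so the p-values measure the spread between these arrays, which may in part be technical. Whole leaves were measured, so fewer cells of a type and less RNA per cell cannot be told apart.

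Values are MAS 5.0 signals, an intensity scaled on every array to the same trimmed mean, and differences are on the log2(signal + 16) scale with the standard error of the limma fit. The added 16 makes the difference of a dim probe set smaller than its true change. A difference is called where the Benjamini-Hochberg adjusted p over the 31555 probe sets that passed a filter on low signals was at most 0.05 and the difference at least 2-fold. All 53 members passed the filter, and 0 had no array above its limit among T183, T195 and Chris. The filter asked for 3 arrays, however, and some members reached that number only with TH237 or T20 arrays. The sterol desaturase probe set Ta.13232.2.S1_at had 1 array above the limit in T195 and 0 in T183 and Chris. GPDHC1 had 1 in T183, 1 in T195 and 0 in Chris. Signals are compared between lines for one probe set and never between probe sets. The squared correlation between replicate arrays lay between 0.915 and 0.939. As a check of the labelled leaf, the 28 probe sets for rbcL, the large subunit of the CO2-fixing enzyme of leaf chloroplasts, had averages of up to 65192 in TH237, 61231 in T20, 52002 in T183, 49121 in T195 and 45731 in Chris. The 4 probe sets for seed storage proteins had averages of up to 138.8 in TH237, 90.8 in T20, 113.7 in T183, 110.7 in T195 and 112.9 in Chris. In the same order the rbcL medians were 94.0, 47.2, 50.5, 47.0 and 33.7, and 13 of the 28 passed the filter. The seed storage medians were 91.1, 73.5, 79.3, 72.8 and 69.1, and 2 of the 4 passed. The leaf check thus rests on the brightest rbcL probe sets, not on the list as a whole. The number of arrays per line limits the precision of every value.

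Plant lipids build membranes, carry sterols that set membrane order, and form the wax and cutin that cover the leaf. Fatty acids are activated by coenzyme A, elongated by ketoacyl-CoA synthases and moved through the cell wall with the help of small lipid transfer proteins. Secondary metabolism begins from a few central precursors: terpene synthases turn prenyl diphosphates into volatile and defensive terpenes, the phenylpropanoid pathway supplies lignin and phenolic esters, and chalcone synthase opens the route to flavonoids. Glycosyltransferases, P450 enzymes, methyltransferases and glutathione transferases then decorate or detoxify these products.

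Between TH237 and T20 most of the members were lower in the alloplasmic line. Of the 53, 8 were called higher and 22 lower, beside 1.35% higher and 0.925% lower of all probe sets tested in this comparison; with arrays centred on their medians all probe sets split into 316 higher and 370 lower in place of 427 and 292, and the members into 6 and 24. The median difference over the members was -1.14, against 0.00139 over all probe sets. Because the list was selected on this contrast, nothing is read from these shares. By class, 2 of the 11 lipid probe sets were called higher and 7 lower, 1 of the 13 secondary ones higher and 5 lower, and 5 of the 29 misc ones higher and 10 lower. A further 11 members were past 2-fold and not called, and 12 were under 2-fold. The median residual standard deviation was 0.699 on the log2 scale for the 11 that were past 2-fold but not called, 0.352 for the 30 called and 0.286 for all probe sets tested. Nearest to the 2-fold limit, an alpha-mannosidase differed by 0.96 and an O-methyltransferase of the phenylpropanoid class by -1.04.

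**Figure D1:**
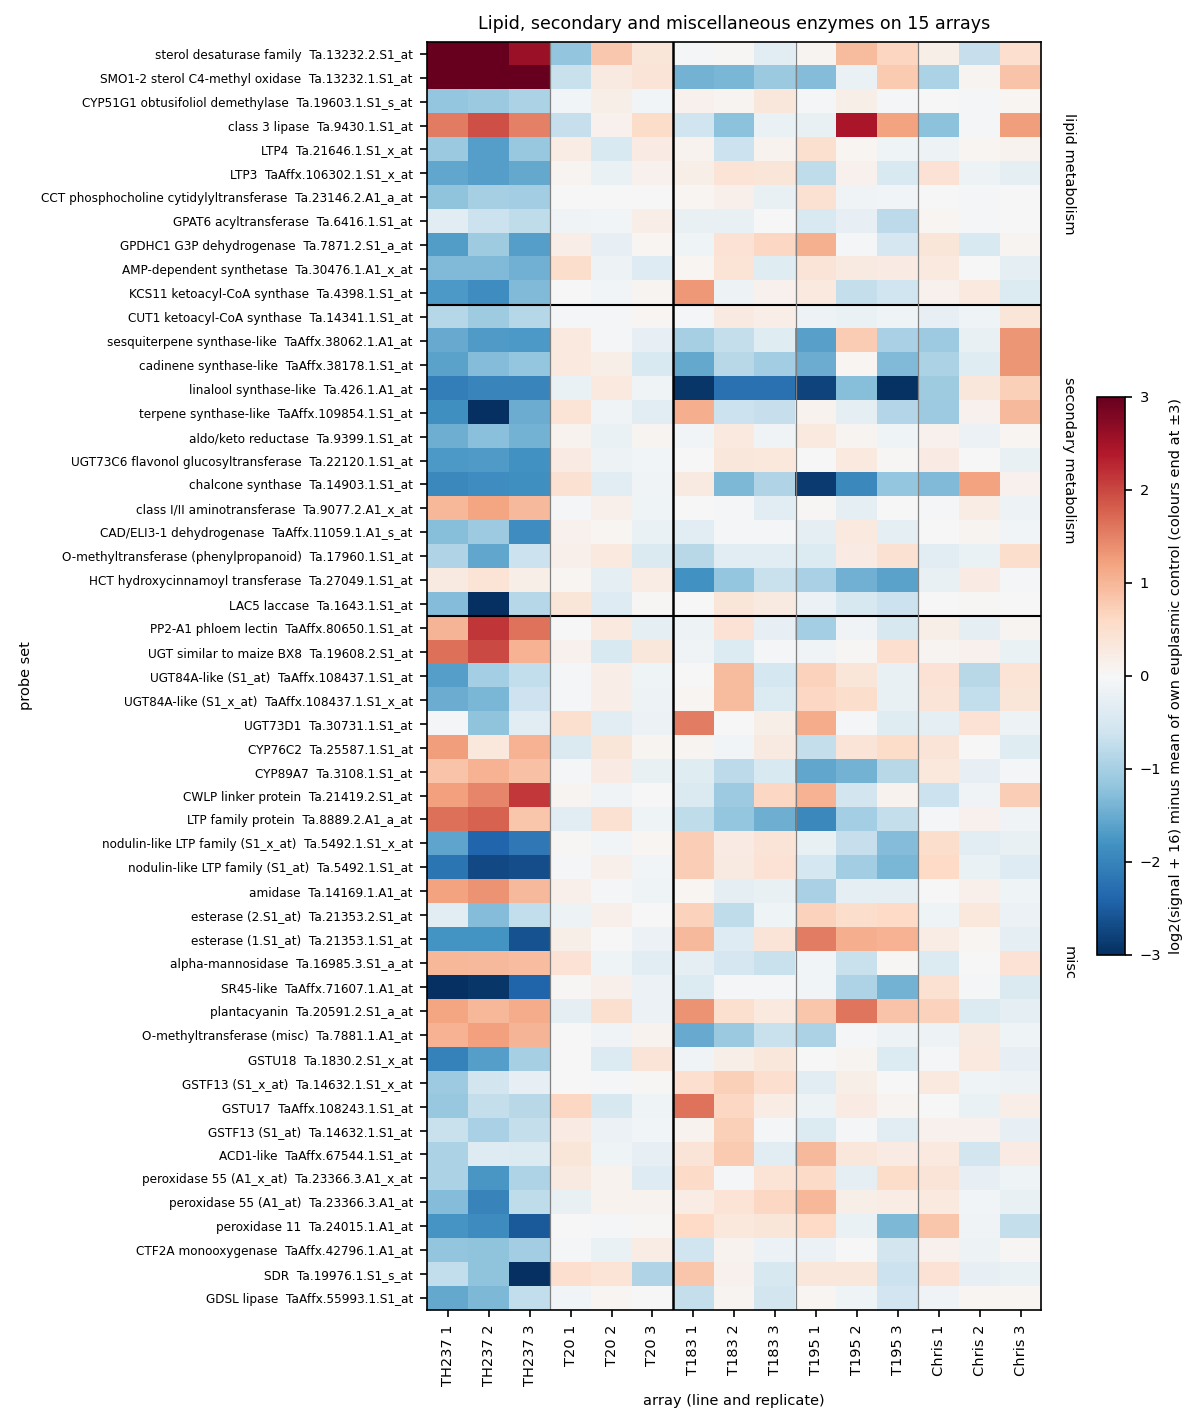
Each row is 1 of the 53 probe sets and each column 1 of the 15 arrays, and the colour gives log2(signal + 16) minus the mean of the line's own euplasmic control (T20 for TH237 and T20, Chris for T183, T195 and Chris), with colours ending at 3 in either direction. The 3 TH237 columns are blue in most rows and dark red in the sterol rows at the top, while the T183 and T195 columns are pale in most rows and dark blue for the linalool synthase-like probe set.

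The arrays themselves separate in the same way. For 13 members all 3 TH237 arrays lay above all 3 T20 arrays and for 36 all lay below, beside 12.4% and 12.4% of all probe sets tested. The 4 members whose arrays overlapped were UGT73D1, CYP76C2, a hydroxycinnamoyl transferase and a short-chain dehydrogenase. When TH237 was set against all 12 arrays of the other lines, it lay above them for 7 members and below them for 23, beside 5.48% and 5.00% of all probe sets. T20 lay above the 12 arrays of the other lines for 5 members and below them for 2, beside 1.95% and 2.26%. The aldo/keto reductase was among both, with TH237 below every other line and T20 above every other line, and for 17 members neither line stood apart. These counts use the values that chose the members and are given as a description. Of the 30 calls, 13 held in every alternative limma fit and with any array left out, whereas the methods' t-test adjusted over all probe sets called 0. The calls of GPDHC1 and of the O-methyltransferase Ta.7881.1.A1_at were lost without any 1 of the 6 TH237 and T20 arrays, with differences of 1.03 to 1.15 for the O-methyltransferase. Those of KCS11 and laccase 5, dim in TH237, were lost without some of these arrays. So were those of CYP51G1, LTP4, peroxidase 11, both peroxidase 55 probe sets, the GDSL lipase, the aminotransferase and the lipid transfer family protein Ta.8889.2.A1_a_at, with differences between -2.21 and -0.94 for the lower members and between 0.99 and 1.71 for the higher ones.

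Among the lipid genes the sterol pathway held the largest differences of the 53 members. SMO1-2 (Ta.13232.1.S1_at) encodes a sterol C4-methyl oxidase, which removes methyl groups on the way to membrane sterols. Its signal was 15641, 25561 and 14454 in TH237, against 833, 1618 and 1763 in T20. It was 214, 222 and 268 in T183 and 233, 522 and 1057 in T195, against 306, 637 and 1107 in Chris. TH237 was therefore far above every other array, and the difference from T20 was 3.73 ± 0.51 (SE), or 13.3-fold. A second probe set of the same transcript cluster, annotated as a sterol desaturase (Ta.13232.2.S1_at), read 1604, 2725 and 1165 in TH237, against 70.2, 327 and 234 in T20, a difference of 3.16 ± 0.47. It read 42.1, 46.1 and 32.0 in T183 and 48.4, 101 and 79.1 in T195, against 53.1, 21.6 and 71.1 in Chris, and as for SMO1-2, with which it is not independent, TH237 lay above every other array.

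The other enzyme of sterol synthesis went the opposite way. CYP51G1, the obtusifoliol demethylase that acts at another step of the same pathway, read 2510.1, 2576 and 2894 in TH237, against 5299.8, 6355 and 5287 in T20. All 3 TH237 arrays lay below the other 12, whose lowest was 4347, and the difference was -1.08 ± 0.14. The class 3 lipase Ta.9430.1.S1_at, which belongs to a family that hydrolyses acylglycerols, was past 2-fold in TH237 but not called, at 1.67 ± 0.65, with signals of 29101, 37326 and 28241 in TH237, against 6048, 10830.0 and 14491 in T20.

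Both lipid transfer proteins of the lipid class were lower in TH237. LTP3 (TaAffx.106302.1.S1_x_at) had 1045, 979 and 1059.7 in TH237, against 3285, 2698 and 3427 in T20, a difference of -1.59 ± 0.23. T183 had 2658, 3140.0 and 3055 and T195 1397, 2604 and 1729, against 3188, 2132 and 1942 in Chris, all above the TH237 arrays. LTP4 differed by -1.30 ± 0.26 and again stood below every array of the other lines.

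The enzymes that make and activate lipid building blocks were also lower in TH237, and 2 of them were dim there. KCS11 (Ta.4398.1.S1_at), a ketoacyl-CoA synthase that adds carbons to fatty acids, had 71.4, 62.5 and 98.5 in TH237, against 274, 253 and 286 in T20. The TH237 arrays were all under the 55th percentile of their array, and on that bound the signal was at least 2.21-fold lower than in T20. KCS11 read 749, 263 and 322 in T183 and 363, 173 and 186 in T195, against 319, 362 and 215 in Chris, and these 3 lines overlapped. GPDHC1, a cytosolic glycerol-3-phosphate dehydrogenase (Ta.7871.2.S1_a_at), had 23.7, 44.1 and 24.0 in TH237, against 128, 90.7 and 115 in T20. It was dim on all 3 TH237 arrays and the bound came to under 1, so no fold is given. It read 57.7, 91.8 and 108 in T183 and 151, 60.7 and 40.3 in T195, against 87.2, 42.7 and 69.5 in Chris, with replicates that overlapped.

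An AMP-dependent synthetase (Ta.30476.1.A1_x_at), of the family that couples acids such as coumarate to coenzyme A, had 318, 318 and 289.8 in TH237, against 1189, 732 and 620.0 in T20. It read 493, 632 and 367 in T183 and 622, 577 and 569 in T195, against 585, 467 and 392 in Chris. The difference between TH237 and T20 was -1.36 ± 0.24, and the TH237 arrays were the lowest of the 15. CCT, the enzyme that supplies CDP-choline for phosphatidylcholine, differed by -1.08 ± 0.16 with all TH237 arrays below the others. GPAT6, an acyltransferase known in Arabidopsis for cutin synthesis, differed by -0.58 ± 0.16 and was not called. CUT1, a ketoacyl-CoA synthase known in Arabidopsis for wax synthesis and placed in the secondary class, was just under the fold limit at -0.92 ± 0.16.

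**Figure D2:**
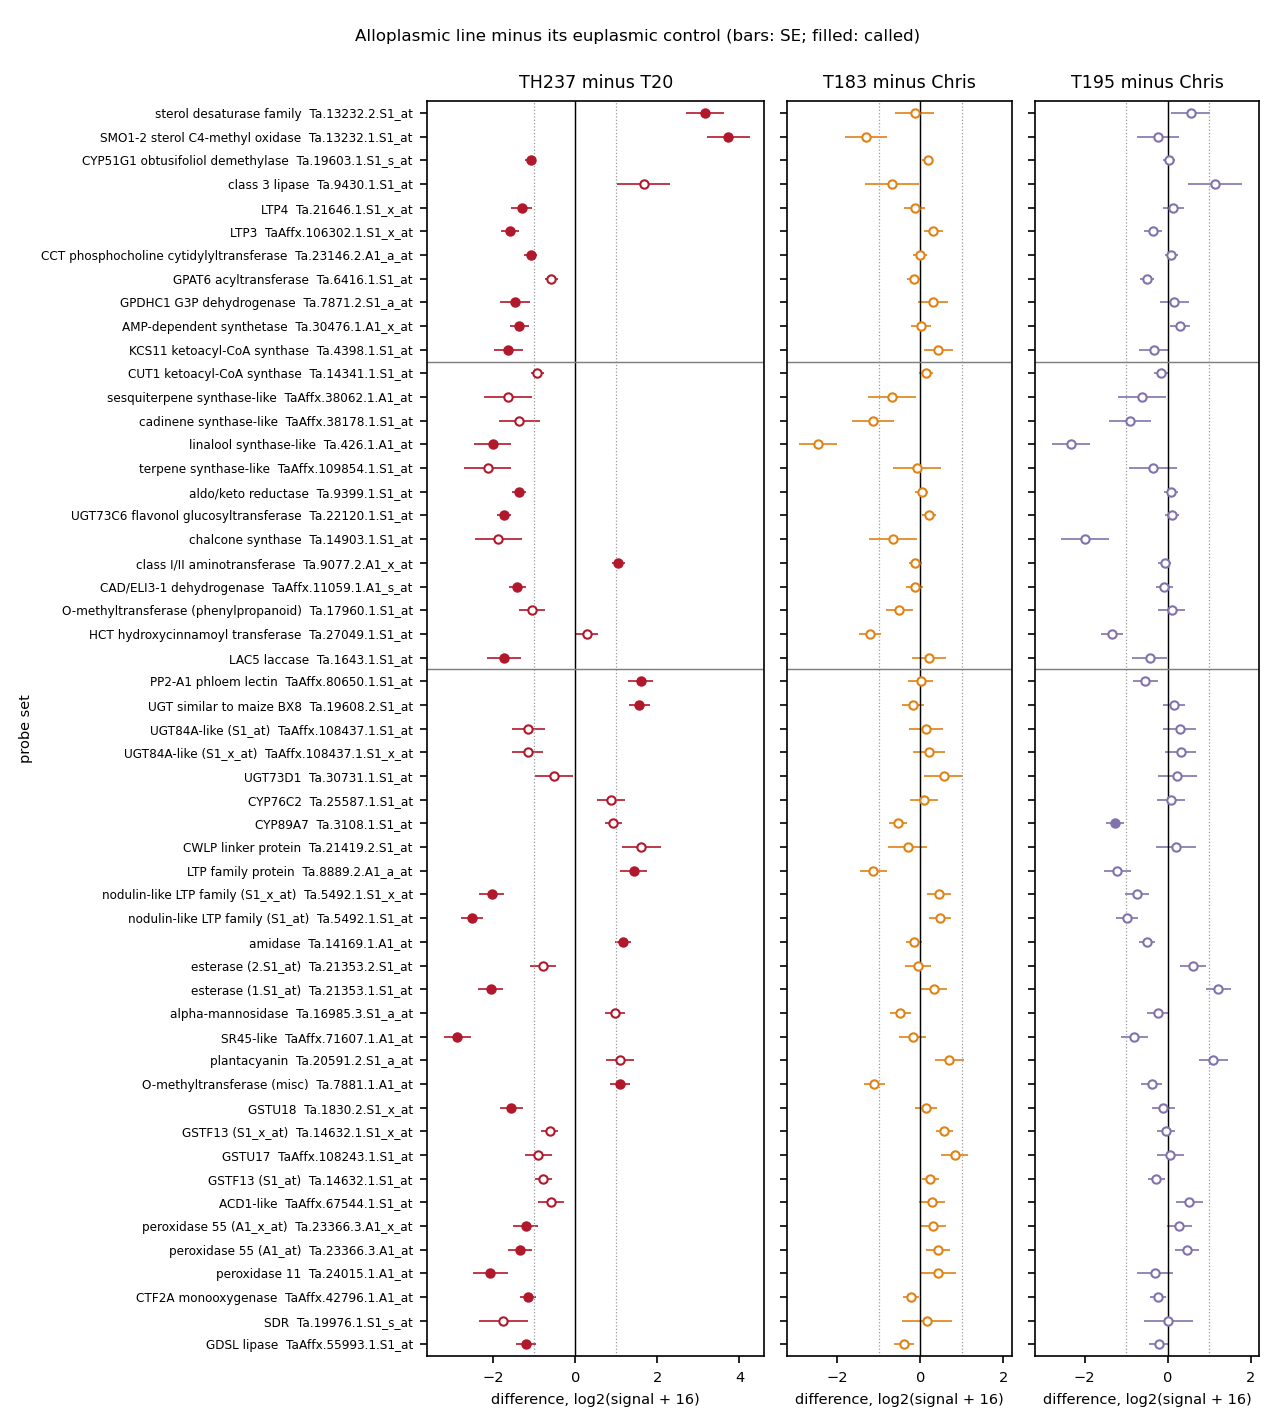
Differences between each alloplasmic line and its euplasmic control on the log2(signal + 16) scale for the 53 probe sets, with bars for the standard error, filled circles for called differences and dotted lines at 2-fold. The TH237 panel holds 30 filled circles, 22 of them to the left of 0, whereas the T183 panel holds 0 and the T195 panel 1.

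All 4 terpene synthase probe sets were lower in TH237 than in T20, with 1 called, and the T195 and Chris replicates of 3 of them spread widely. The linalool synthase-like Ta.426.1.A1_at had 1842, 1971 and 1956 in TH237, against 6849, 9617 and 7222 in T20. It had 935, 1506 and 1495 in T183 and 1029, 2951 and 909 in T195, against 3424, 9082 and 11818 in Chris. In each alloplasmic line all 3 arrays lay below all 3 arrays of its control. The difference from the control was -2.01 ± 0.46 for TH237, -2.47 ± 0.46 for T183 and -2.34 ± 0.46 for T195. This was the only 1 of the 53 members at least 2-fold lower in all 3 lines, with T183 and T195 set against the same 3 Chris arrays. Only the TH237 difference was called, and that call was lost when any 1 of the 6 TH237 and T20 arrays was left out, at differences between -1.86 and -2.11. With 64 added before log2, or with arrays centred on their medians, it was called lower in T183 (-2.43 and -2.48) and in T195 (-2.30 and -2.27) as well. It was also called in both when T195 replicate 2 or Chris replicate 1 was left out, at -2.47 and -2.999 in T183 and at -2.87 either way in T195.

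The other 3 terpene synthases were past 2-fold lower in TH237 and not called. The sesquiterpene synthase-like TaAffx.38062.1.A1_at had 2081, 1839 and 1804 in TH237, against 7321, 5754 and 5045 in T20. The cadinene synthase-like TaAffx.38178.1.S1_at had 176, 219.8 and 243 in TH237, against 693, 641 and 409 in T20. TH237 and T20 did not overlap for either, while the T195 and Chris arrays of both spread widely: the sesquiterpene synthase-like probe set had 190.1, 1058 and 307 in T195, against 283, 529.8 and 1574 in Chris. The same T195 and Chris arrays, replicate 2 of T195 and replicate 3 of Chris, were the highest of their lines for the lipase, the linalool, sesquiterpene and cadinene synthase-like probe sets, and the part of these 2 arrays in the results was not tested. The fourth probe set, terpene synthase-like TaAffx.109854.1.S1_at, was dim in TH237 and at least 2.95-fold lower there than in T20 on the detection bound.

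The flavonoid enzymes were lower in TH237 as well. UGT73C6 (Ta.22120.1.S1_at), described in Arabidopsis as a flavonol glucosyltransferase, had 3441, 3489.5 and 3231 in TH237, against 13453, 10202 and 10640.0 in T20. It had 11635, 14896 and 14658 in T183 and 11697, 14517 and 12119 in T195, against 13932, 11733 and 10058 in Chris. The 12 arrays of the other lines thus lay close together and TH237 stood alone below them, with a difference of -1.74 ± 0.17 from T20. The aldo/keto reductase binned with chalcones differed by -1.37 ± 0.17. Chalcone synthase itself (Ta.14903.1.S1_at) was dim in TH237, at 75.1, 80.0 and 81.7, against 458, 259 and 307 in T20, and at least 2.69-fold lower on the detection bound, but was not called. Its T195 arrays read 73.2, 155 and 275, against 243, 1477 and 698 in Chris, which overlapped.

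In the phenylpropanoid group 1 probe set was called higher in TH237. The class I/II aminotransferase Ta.9077.2.A1_x_at, similar to an aspartate transaminase, had 1616, 1827 and 1575 in TH237, against 783, 880.0 and 733 in T20. It had 1111, 1062 and 862 in T183 and 1132, 906 and 1094 in T195, against 1048, 1283 and 980.4 in Chris, all below TH237. The difference was 1.05 ± 0.16. The dehydrogenase CAD/ELI3-1 (TaAffx.11059.1.A1_s_at), of the family that reduces cinnamyl aldehydes to the alcohols used in lignin, was lower, with 3209, 3642 and 2142 in TH237, against 8532, 8213 and 6851 in T20. It had 5217, 6222 and 6302 in T183 and 5390.2, 7895 and 5340.0 in T195, against 6472, 6837 and 6070.0 in Chris. TH237 again lay below all other arrays, at -1.42 ± 0.21 from T20. Outside this group, laccase 5 (Ta.1643.1.S1_at) is binned with simple phenols and belongs to a copper oxidase family that couples phenols. It had 51.7, 4.09 and 77.3 in TH237, against 198, 113 and 155 in T20, and was at least 1.29-fold lower on the detection bound. It had 152, 199 and 184 in T183 and 131, 104 and 90.3 in T195, against 149, 154 and 149.9 in Chris.

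The hydroxycinnamoyl transferase HCT, which forms the shikimate esters used for lignin monomers, behaved differently from the rest of this group. It did not separate TH237 (6344, 6964 and 5953) from T20 (5524, 4288 and 6175). It was lower in both Aegilops lines, with 1043, 1658 and 2313 in T183 and 1874, 1359.7 and 1203 in T195, against 3163, 4421 and 3621 in Chris. The differences of -1.21 ± 0.26 and -1.34 ± 0.26 share the Chris arrays and were not called, although neither line overlapped Chris. HCT was called lower in T183 without T183 replicate 3, at -1.48, and in T195 with 64 added (-1.31) or without T183 replicate 1 or 3 (-1.34).

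**Figure D3:**
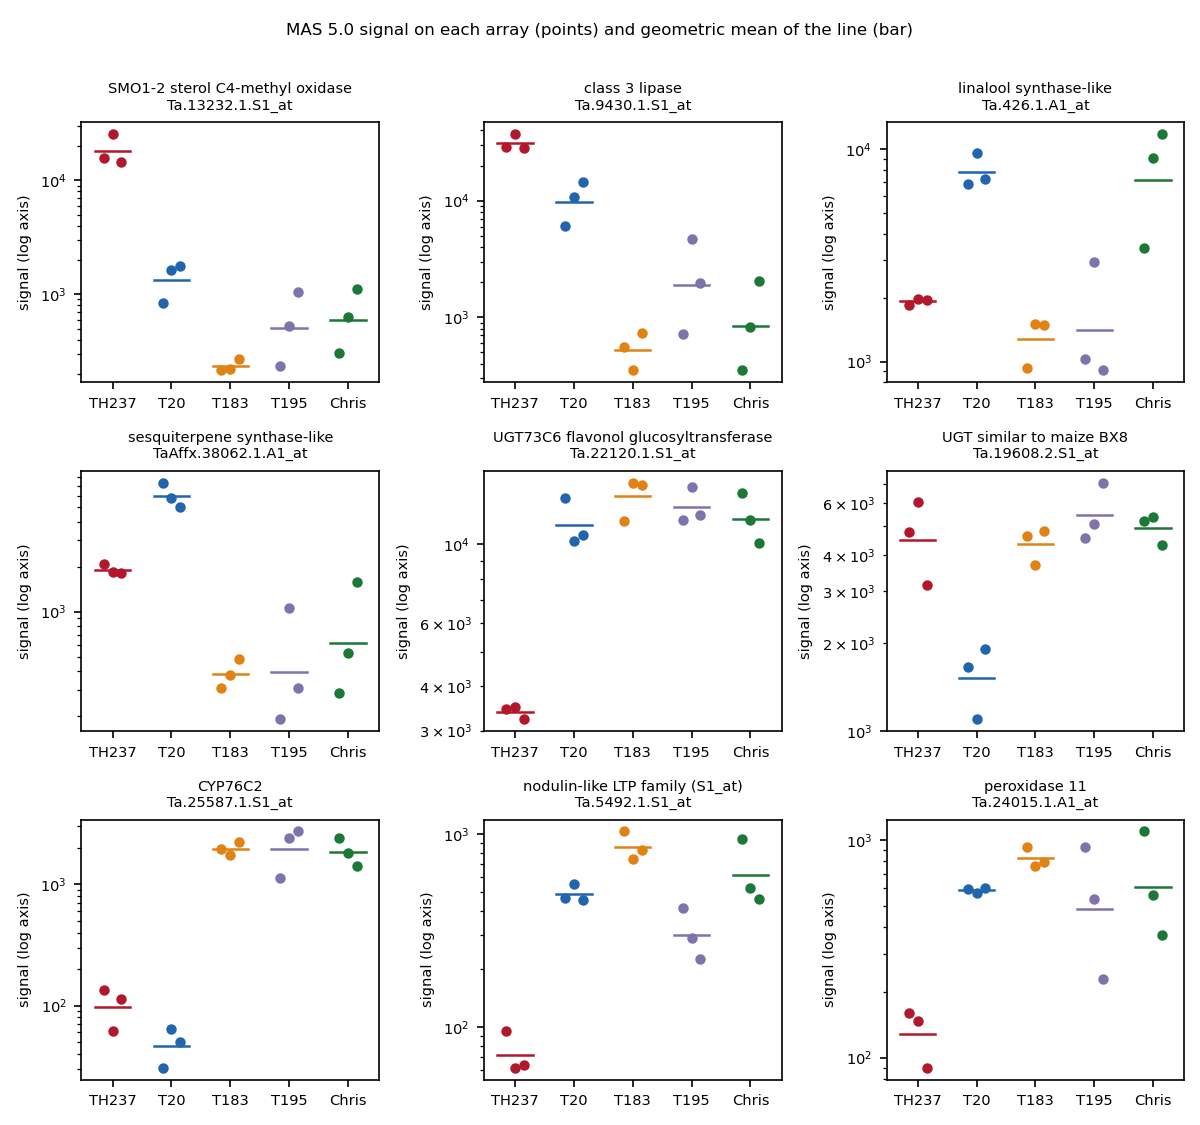
Signals of 9 members on each of the 15 arrays (points, log axis) with the geometric mean of each line (bar), in the order TH237, T20, T183, T195 and Chris. TH237 stands alone above the other lines for SMO1-2 and alone below them for UGT73C6, the nodulin-like protein and peroxidase 11, T20 stands alone below them for the BX8-like glycosyltransferase, and CYP76C2 separates both lines with the T20 nucleus from the 3 lines with the Chris nucleus.

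In the misc class the members higher in TH237 came from several families. PP2-A1 (TaAffx.80650.1.S1_at), a phloem lectin, had 985, 2169 and 1508 in TH237, against 473, 592 and 386 in T20, a difference of 1.60 ± 0.30. It had 868, 1306 and 806 in T183 and 463, 893 and 682 in T195, against 1096, 795 and 1018 in Chris, so the TH237 arrays overlapped those of the lines with the Chris nucleus. A UDP-glycosyltransferase similar to maize BX8 (Ta.19608.2.S1_at), which in maize glucosylates benzoxazinoid defence compounds, had 4782, 6042 and 3142 in TH237, against 1657, 1096 and 1904 in T20. It had 4621, 3697 and 4828 in T183 and 4581, 5104 and 7058 in T195, against 5219.9, 5372 and 4306 in Chris. Here it was T20 that lay below all other lines, and TH237 fell within the range of the other 9 arrays apart from its lowest, so the difference of 1.56 ± 0.26 rests on the low T20 values. The remaining 3 UDP-glycosyltransferase probe sets, UGT73D1 and the pair similar to UGT84A, were lower in TH237 and not called.

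A protein of the protease inhibitor, seed storage and lipid transfer family (Ta.8889.2.A1_a_at) had 1011, 1095 and 568 in TH237, against 246, 429 and 282 in T20, a difference of 1.42 ± 0.33. It went the other way in the Aegilops lines, with 424, 319 and 256 in T183 and 182, 352 and 443 in T195, against 717, 806 and 687 in Chris, at -1.13 and -1.22, neither called. An amidase (Ta.14169.1.A1_at), of a family that hydrolyses amides, had 1097, 1215 and 943 in TH237, against 522, 461 and 431 in T20. It had 535, 415 and 439 in T183 and 256, 426 and 416 in T195, against 507, 570.2 and 473 in Chris, and TH237 lay above all of these. The difference between TH237 and T20 was 1.17 ± 0.19. An O-methyltransferase of this class (Ta.7881.1.A1_at) was called higher at 1.10 ± 0.24, the cell wall linker protein CWLP differed by 1.60 ± 0.47 and the copper protein plantacyanin by 1.09 ± 0.34, the last 2 not called.

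TaAffx.71607.1.A1_at was called lower in TH237 and is binned with the glycosidases although its description is that of SR45, an RNA splicing protein in Arabidopsis. It had 17.7, 27.1 and 46.2 in TH237, against 320.3, 347 and 272 in T20. It had 208, 269.7 and 269 in T183 and 266, 140.1 and 95.4 in T195, against 396, 273 and 206 in Chris. TH237 was dim on all 3 arrays, and the signal was at least 2.53-fold lower than in T20.

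A nodulin-like protein of the lipid transfer family was represented by a pair of probe sets. Ta.5492.1.S1_at had 95.0, 61.6 and 64.1 in TH237, against 464, 548 and 456 in T20, at least 3.89-fold lower on the detection bound. It had 1029, 737 and 826 in T183 and 415, 288 and 225 in T195, against 935, 526 and 461 in Chris. Ta.5492.1.S1_x_at, from the same cluster, had 154, 81.8 and 97.9 in TH237, against 500.4, 464 and 511 in T20, a difference of -2.04 ± 0.29. It had 1100.3, 769 and 849 in T183 and 552, 396 and 255 in T195, against 949, 518 and 559.9 in Chris. Both placed TH237 below every other array, and T195 below T183.

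Of the 2 esterase probe sets 1 was called lower in TH237, and all 3 peroxidase ones were. The putative esterase Ta.21353.1.S1_at, similar to an acetone-cyanohydrin lyase, had 85.0, 86.3 and 41.8 in TH237, against 382, 333 and 297 in T20, at least 2.72-fold lower on the detection bound. It had 954, 364 and 631 in T183 and 1405, 1034 and 995 in T195, against 559.8, 494 and 392 in Chris, and its T195 arrays lay above all Chris arrays, at 1.22 ± 0.31, which was not called. Ta.21353.2.S1_at of the same cluster differed by -0.79 between TH237 and T20 and was not called. Peroxidase 11 (Ta.24015.1.A1_at), of the secreted heme peroxidases, had 161, 147 and 89.7 in TH237, against 593, 575 and 603 in T20. It had 928, 759 and 796 in T183 and 929, 534 and 229.6 in T195, against 1098, 562 and 366 in Chris. The difference was -2.06 ± 0.43, with TH237 below all other arrays. A pair of probe sets for peroxidase 55 differed by -1.36 ± 0.29 and -1.20 ± 0.30, and here T20 lay above every other line.

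All 4 glutathione transferase probe sets, which measure enzymes that conjugate glutathione to toxic or oxidised compounds, were on the lower side in TH237. GSTU18 was called, at -1.55 ± 0.27, with 67.5, 91.9 and 155 in TH237, against 328, 241 and 424 in T20. GSTU17 and the pair for GSTF13 were under 2-fold, between -0.90 and -0.62. Among the single members, the CTF2A monooxygenase differed by -1.14 ± 0.20 and a GDSL lipase by -1.20 ± 0.24, both called. The Rieske protein similar to ACD1 differed by -0.58 ± 0.32 and a short-chain dehydrogenase by -1.76 ± 0.59, neither called.

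In the Aegilops lines few members were called against Chris. In T183, 0 members were called by limma, beside 0.0254% higher and 0.0982% lower of all probe sets tested. At an unadjusted p of at most 0.05 there were 9, beside 6.89% of all probe sets, and the methods' t-test called 0. Past 2-fold, 0 were higher and 6 lower, beside 0.542% and 1.16% of all probe sets. In T195, 0 were called higher and 1 lower, beside 0.0317% and 0.222% of all probe sets, with 12 at an unadjusted p of at most 0.05, beside 11.2%. Past 2-fold in T195, 3 were higher and 5 lower, beside 0.637% and 2.01%. The list was selected on these contrasts too, so nothing is read from these shares. The members past 2-fold lower in both lines were 3, the linalool synthase-like probe set, HCT and the lipid transfer family protein Ta.8889.2.A1_a_at. T183 arrays lay all above Chris for 3 members and all below for 6, beside 5.37% and 6.24% of all probe sets, and T195 arrays all above for 3 and all below for 8, beside 7.05% and 8.98%.

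The 1 member called in T195 was the cytochrome P450 CYP89A7 (Ta.3108.1.S1_at). It had 80.5, 90.2 and 144 in T195, against 337, 224 and 256 in Chris, a difference of -1.27. T183 stood between them at 206, 149.6 and 191, also below all Chris arrays. TH237 went the other way, with 459, 526 and 471, against 243, 296 and 209 in T20, at 0.93 and not called. The T195 call was lost when Chris replicate 1 or 3 or T195 replicate 1 or 2 was left out, at differences between -1.12 and -1.31, and with no filter, with either other scaling or with the T195 and Chris arrays alone.

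The cytoplasms of the Aegilops lines can be set against each other within the same nucleus, a contrast that did not choose the members but uses the arrays that did. Between T183 and T195, 0 of the 53 members were called by limma, beside 0.0444% higher and 0.0285% lower of all probe sets, with 12 at an unadjusted p of at most 0.05, beside 7.89%, and 0 by the methods' t-test. The nearest was the nodulin-like Ta.5492.1.S1_at, whose 3 T183 arrays all lay above the 3 T195 arrays, at 1.46 ± 0.27 with an adjusted p of 0.0769 in limma.

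The nuclear background was tested by setting the mean of TH237 and T20 against the mean of T183, T195 and Chris. Its error is independent of the contrasts that chose the members, but a difference confined to TH237 enters it in part (0.5 of its size), so T20 alone was also set against the 3 lines with the Chris nucleus. The contrast with T20 alone lacks that independence, because its T20 arrays also entered the choice of the members. A difference of T183 or T195 from Chris enters either contrast in part. A p-value of the first contrast is therefore no test of the nucleus apart from the cytoplasms. By limma, 9 members were called higher with the T20 nucleus and 11 lower, beside 6.00% higher and 5.76% lower of all probe sets, and 40 had an unadjusted p of at most 0.05, beside 49% of all probe sets. With arrays centred on their medians the members split into 8 higher and 16 lower, and the median of all probe sets moved to -0.116 in place of 0.0207. The median over the members was -0.36. Of the 20, 11 were called in the same direction with T20 alone, 16 with TH237 alone and 7 with each, and 9 were not called with T20 alone. Over all members 13 were called with T20 alone and 34 with TH237 alone, beside 10.2% and 14.4% of all probe sets. The arrays of both lines entered the contrast that chose the members, so neither count is free of that choice.

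**Figure D4:**
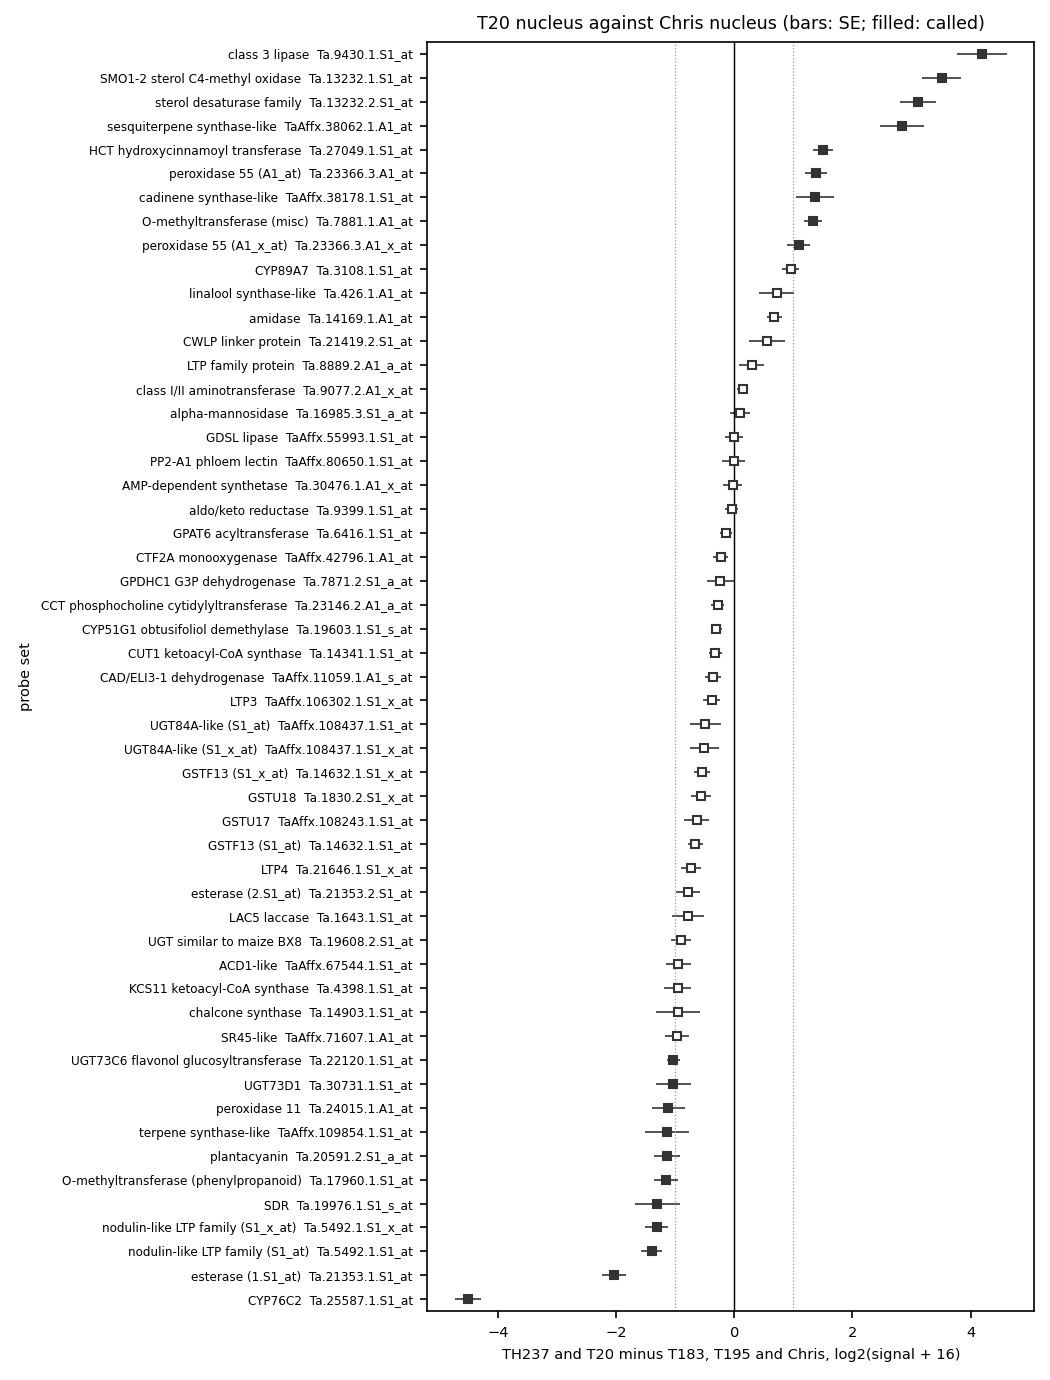
Difference between lines with the T20 nucleus (TH237 and T20) and lines with the Chris nucleus (T183, T195 and Chris) on the log2(signal + 16) scale for the 53 probe sets, sorted, with bars for the standard error, filled squares for called differences and dotted lines at 2-fold. The lipase at 4.19 and CYP76C2 at -4.51 lie at the ends, and 33 members are unfilled.

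The members with the widest gap between nuclei were an enzyme of lipid breakdown and a P450. The lipase Ta.9430.1.S1_at ranged between 6048 and 37326 in the 6 arrays with the T20 nucleus (median 21366), against 350.4 to 4713 in the 9 with the Chris nucleus (median 733). The groups did not overlap, and the difference was 4.19 ± 0.42 (limma, adjusted p = 4.08e-06), or 3.36 ± 0.53 with T20 alone. CYP76C2 (Ta.25587.1.S1_at) ran the other way, from 30.7 to 133 with the T20 nucleus (median 63.1), against 1126 to 2729.8 with the Chris nucleus (median 1963). The groups were again apart, at -4.51 ± 0.22 (limma, adjusted p = 3.91e-09), or -4.08 with TH237 alone. T20 alone was dim on its 3 arrays and was called lower, at least 15.9-fold on the detection bound.

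The sesquiterpene synthase-like probe set was higher with the T20 nucleus. It ranged from 1804 to 7321 there (median 3563), against 190.1 to 1574 with the Chris nucleus (median 373), a difference of 2.84 ± 0.37 (limma, adjusted p = 4.34e-05) that was 3.66 with T20 alone. No array of one nucleus reached the range of the other. HCT, with 4288 to 6964 for the T20 nucleus against 1043 to 4421 for the Chris nucleus, differed by 1.499 ± 0.17 (limma, adjusted p = 1.21e-05) and by 1.36 with T20 alone, and only the ends of the ranges overlapped. Both differences take in the low values of T183 and T195, which differed from Chris by -1.21 and -1.34. The T20 arrays (4288 to 6175) overlapped those of Chris itself (3163 to 4421).

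SMO1-2 was higher with the T20 nucleus, also with T20 alone. It differed by 3.51 ± 0.33 (limma, adjusted p = 2.35e-06) and by 1.64 ± 0.42 with T20 alone. The first value takes in TH237, at 3.73 from T20, and both take in T183, at -1.31 from Chris. The sterol desaturase, of the same cluster and not independent, differed by 3.11 ± 0.30 and by 1.53 ± 0.38 with T20 alone. CYP51G1 of the same pathway differed by -0.30 and by 0.24 with T20 alone, neither called. The sterol desaturase passed the filter only with its TH237 and T20 arrays, so its differences are a description without a p-value. Its call is still counted among those given above. In T20 the SMO1-2 signal of 833 to 1763 overlapped the range of 214 to 1107 in the lines with the Chris nucleus. The esterase Ta.21353.1.S1_at was lower with the T20 nucleus, at -2.03 ± 0.20 (limma, adjusted p = 3.54e-06) and -1.003 ± 0.25 with T20 alone. Its mean signal was 337 in T20 and 482 in Chris, with 71 in TH237, 649 in T183 and 1145 in T195. Both differences thus take in the higher values of T183 and T195. For the nodulin-like pair Ta.5492.1.S1_at and Ta.5492.1.S1_x_at the differences were -1.40 ± 0.17 and -1.32 ± 0.19. With T20 alone they were -0.14 and -0.30, which were not called. The calls of this pair between nuclei thus rest on TH237, and no p-value is given for them.

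Of the members' 47 transcript clusters, 17 hold other probe sets on the array, 38 in all, of which 25 passed the filter. These others stand outside the study's list, so probe sets of the clusters that passed its limits on these same arrays are absent. The counts of differences from a control are lowered by that choice, and nothing is read from them. The others can also share probes or transcripts with the members. Between TH237 and T20, 2 were called higher and 2 lower, beside 1.35% and 0.925% of all probe sets, 15 had an unadjusted p of at most 0.05, beside 17.9%, and 19 were within 2-fold. Their median difference was 0.15, and 19 of the 25 lay on the same side of 0 as the members of their cluster and 6 on the other side. The probe set beside GPAT6, Ta.6416.2.S1_a_at, was called lower (limma, adjusted p = 0.0192), with means of 21.9 in TH237 and 157 in T20. It was dim on all 3 TH237 arrays, and at least 1.32-fold lower than in T20 on the detection bound. Against Chris, 0 of the 25 were called by limma in either Aegilops line, nor between these lines, with 2 (T183), 3 (T195) and 1 (T183 against T195) at an unadjusted p of at most 0.05, beside the 6.89%, 11.2% and 7.89% of all probe sets.

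The peroxidase 55 cluster held probe sets that ran opposite ways between the nuclei. Its members Ta.23366.3.A1_at and Ta.23366.3.A1_x_at were higher with the T20 nucleus, at 1.39 ± 0.19 and 1.09 ± 0.19 (limma, adjusted p = 5.98e-05 and 0.000543). These 2 differences rest more on T20, which lay above every other line, than on TH237. Ta.23366.2.S1_at of the same cluster averaged 92.6 in TH237 and 36.7 in T20, against 2394.6 in T183, 2692 in T195 and 2119 in Chris. It was dim on all 6 arrays with the T20 nucleus, and at least 18.8-fold lower there on the detection bound (limma, adjusted p = 2.02e-09). The values of this cluster thus differed with the probe set read. Between TH237 and T20 the other probe sets of the cluster differed by -0.12, 0.15, 0.76 and 1.16, none called, where the members differed by -1.36 and -1.20.

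**Figure D5:**
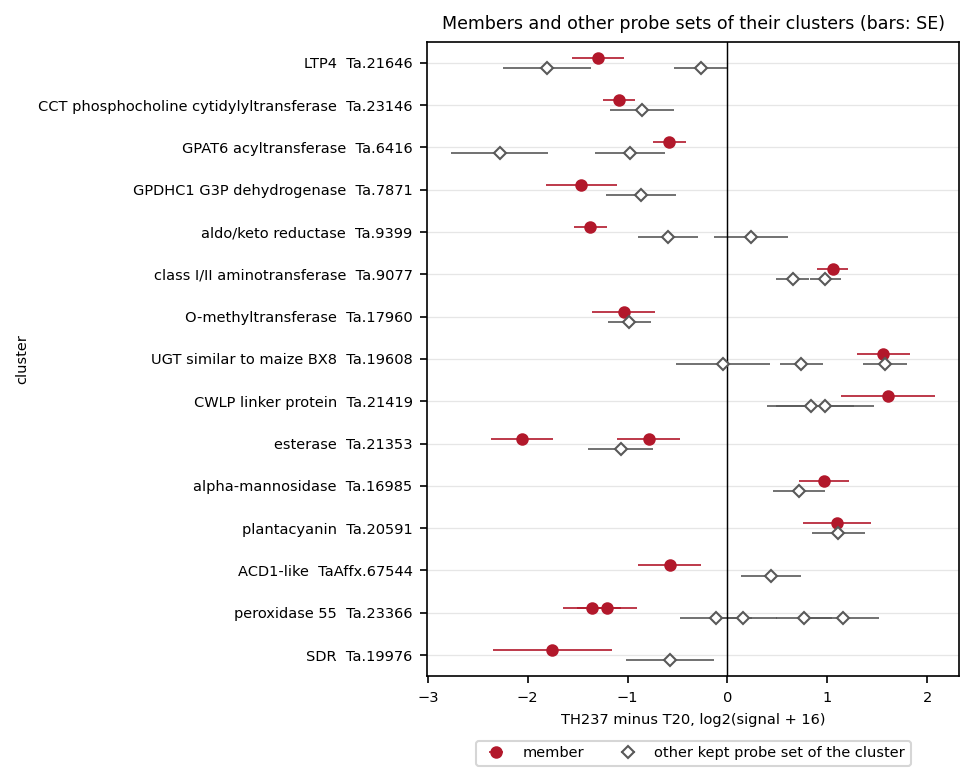
TH237 minus T20 on the log2(signal + 16) scale for members (red circles) and for the other probe sets of the same transcript cluster that passed the filter (open diamonds), with bars for the standard error, in the 15 clusters that hold such probe sets. In the ACD1-like row the member and the other probe set lie on different sides of 0. The peroxidase 55, BX8-like and aldo/keto reductase rows hold others on either side, and in the remaining rows members and others lie on the same side.

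Genes of the same enzyme families that carry a symbol on the array were compared from a list made by symbol: 3 probe sets for the glutathione transferase GSTZ1, 2 for LTP3, 1 for the caffeate O-methyltransferase COMT1 and 6 for the peroxidases PER1 and Prx1. Probe sets on the study's list were left out, so those that passed its limits on these same arrays are absent. Nothing is therefore read from the number called against a control. Of these 12, 10 passed the filter. By limma 0 were called in any alloplasmic line against its control or between the Aegilops lines, and 1 between the nuclear backgrounds, with 5 at an unadjusted p of at most 0.05 in TH237, beside 17.9% of all probe sets. Between TH237 and T20 the 2 LTP3 probe sets of the list differed by -0.63 ± 0.17 and 0.50 ± 0.35, and the 3 for GSTZ1 by 0.49, 0.68 and 0.49.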

How the data were processed

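Total RNA of leaf was hybridised to the Affymetrix Wheat Genome Array, 3 arrays for each of 5 lines. The authors deposited MAS 5.0 signals, a linear intensity scaled to a common trimmed mean (2% trimmed). The methods' RMA values were not used here. Signals were taken as log2(signal + 16) in R 4.3.3. After 111 control probe sets were left out, 31555 of 61179 probe sets lay above the 55th percentile of their array on at least 3 arrays. One limma 3.58.1 model with a mean for each line was fitted to all 15 arrays (10 residual degrees of freedom), with Benjamini-Hochberg adjustment over the 31555. A dim group, under that percentile on all its arrays, was given only a bound.

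Members were found by functional class, description and localization alone. The members and the lists were chosen with earlier results of these data known. Named with every array value were, per class, up to 4 called members in each direction by size of the TH237 difference, every member called in T183 or T195, and 4 in each direction between nuclear backgrounds (24 probe sets); others were named to complete a family or a contrast, after their values were seen. A cluster is the identifier before the second point of a probe set's name. Of the probe sets, 1273 carried 1 gene symbol and 60017 none, and 1272 symbols were matched to RefSeq. All columns mapped to a sample.

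On simulated data at 31555 probe sets, TH237 against T20 recovered 77% of differences of 1.5 and 98% of differences of 3 on the log2 scale. Against Chris, T183 recovered 74% and 98%, and T195 67% and 94%. Unchanged probe sets called were 3 for TH237, 7 for T183 and 10 for T195. Alternatives were the value added, the filter, median centring and quantile normalization, fewer arrays, the methods' t-test (Welch), the fold limit, a replicate block, and each array left out.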

Additional observations from a re-analysis of the deposited data

Results flagged for a closer look

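Some members moved one way in every array of TH237 against T20 and the opposite way in every array of an Aegilops line against Chris. The difference between the comparisons was not tested, and lines of 3 arrays were too small for a check of single outlying arrays. The first of each set of values below is TH237 minus T20 on the log2(signal + 16) scale.

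Higher in TH237 and lower in an Aegilops line were 5 members. SMO1-2 (Ta.13232.1.S1_at) differed by 3.73 in TH237 and by -1.31 in T183. CYP89A7 (Ta.3108.1.S1_at) differed by 0.93 in TH237, against -0.53 for T183 and -1.27 for T195. The lipid transfer family protein Ta.8889.2.A1_a_at differed by 1.42 in TH237, against -1.13 for T183 and -1.22 for T195. The amidase (Ta.14169.1.A1_at) differed by 1.17 in TH237 and -0.51 in T195. The O-methyltransferase Ta.7881.1.A1_at differed by 1.10 in TH237 and -1.10 in T183.

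Lower in TH237 and higher in an Aegilops line were 5 members. CYP51G1 (Ta.19603.1.S1_s_at) differed by -1.08 in TH237 and 0.18 in T183. The esterase probe sets of one cluster differed by -2.06 (Ta.21353.1.S1_at) and -0.79 (Ta.21353.2.S1_at) in TH237 and by 1.22 and 0.60 in T195; the first was dim in TH237, so its -2.06 is a fitted value and the signal was at least 2.72-fold lower. GSTU17 (TaAffx.108243.1.S1_at) differed by -0.90 in TH237 and 0.83 in T183. GSTF13 (Ta.14632.1.S1_x_at) differed by -0.62 in TH237 and 0.58 in T183. Of all the Aegilops values here, that of CYP89A7 in T195 was the only one called.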

How the results depend on the processing

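The direction of all 53 members between TH237 and T20 held in every one of the 1166 combinations of member and alternative. Against the reported call, 1074 combinations stayed on the same side of the threshold, 78 lost a call and 14 gained one. Of the 30 calls, 15 held in every limma fit on all arrays or on those of the contrast, and 13 also under every removal of an array. The number called was 22 with no filter, 24 with only the TH237 and T20 arrays, and 20 to 32 when 1 array was left out. The methods' t-test called 0 with adjustment over the 31555 probe sets and 24 when the 2-fold limit was applied first, a setting added after the data were seen. In T183 the count was 1 with 64 added before log2, with arrays centred on their medians, or with a replicate block, and 0 to 1 with an array left out. In T195 the count was 3 with 64 added, and 0 with no filter, with quantile normalization, with only the T195 and Chris arrays, and under both forms of the t-test. It was 0 to 2 with an array left out, 0 without T195 replicate 1 or Chris replicate 3. Between T183 and T195 it was 1 with 64 added or with the block, and 0 to 1 with an array left out. Between nuclear backgrounds 37 passed with no fold limit, 13 with T20 alone and 34 with TH237 alone, the last 2 chosen after the data were seen. Of 420 combinations for the 20 calls there, 397 kept the call, 23 lost it and 0 reversed, and 14 calls held throughout. Causes of these shifts were not tested. The setting with only the arrays of the contrast uses the same arrays there and was not run.

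Same-numbered arrays did not deviate together: correlations of their deviations were 0.00753 to 0.0302 for TH237 and T20, -0.196 to 0.0309 for T183 and Chris, -0.0941 to -0.0213 for T195 and Chris, and -0.00691 to 0.0340 for T183 and T195. The samples share only a number. The replicate block called 30 members in TH237, 29 of them shared with the fit without it. It called 1 in T183 and 1 in T195, the linalool synthase-like probe set in both, and did not call CYP89A7 in T195. It called 1 between T183 and T195, and 20 between nuclear backgrounds.

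The number of arrays per line limits the precision. Residual standard deviations (log2) reached 0.903 for the lipase, 0.824 for the short-chain dehydrogenase and 0.799 for chalcone synthase. For probe sets dim in TH237 the fold is known only as a bound, and a log2 value printed for one is a fitted value.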
